A study of Mus musculus with 3 samples.

Results

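Interleukin 1 (IL-1) is an inflammatory cytokine system with built-in brakes. Of its genes, 10 were followed in libraries labelled as induced cardiomyocytes (iCMs), made from fibroblasts of infarcted mouse hearts. The 10 genes encoded the agonist ligands Il1a, Il1b, Il18 and Il33, the receptor antagonist Il1rn, the receptor chains Il1r1, Il1rap and Il1rl1, the decoy receptor Il1r2 and the processing enzyme Casp1. They were taken by gene name from the 54532 genes of the deposited tables, and 10 of 10 were found. Il1rn was selected on its measured rise in GMTMS-iCMs against the starting fibroblasts, so that contrast is given as a description for it. The other genes were added as its family with earlier results of these data known.

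IL-1 alpha and IL-1 beta bind the receptor encoded by Il1r1, which signals once it is joined by the accessory chain encoded by Il1rap and then activates NF-kB. The IL-1 receptor antagonist, encoded by Il1rn, occupies the same receptor without signalling, and the decoy receptor encoded by Il1r2 binds the ligand without signalling. IL-18 and IL-33 are related ligands with receptors of their own, that of IL-33 being encoded by Il1rl1. After myocardial infarction, macrophages and other leukocytes are known sources of IL-1 beta, cardiac fibroblasts are known to respond to it, and IL-33 is known from stromal and endothelial cells.

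RNA was sequenced from 3 libraries, 1 per condition. MICFs were cells isolated from the infarcted tissue of Myh6-mCherry mice 5 days after the left anterior descending coronary artery had been ligated at 8 weeks of age. They were kept in culture without virus and collected after the same time as the transduced cells. GMTMS-iCMs came from such cells transduced with Gata4, Mef2c, Tbx5, Myocd and Sall4, and GMTMM-iCMs from cells given Mesp1 in place of Sall4. Both cocktails were delivered by lentivirus under doxycycline control (1 µg/ml in the medium), and cells were sorted after 4 weeks for mCherry, which is driven by the mouse Myh6 promoter in these mice and stands for Myh6 promoter activity rather than for a whole cardiomyocyte program. For each cocktail 5 sorted samples were mixed into 1 library. The labels give 1 protocol text for all libraries, sorting included, while the study's methods describe the sort for the transduced cells.

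Library totals ranged from 10624118 to 11904484 counts. Sall4 had 0 counts in MICFs, 1190 in the GMTMS-iCM library and 1060 in the library labelled GMTMM, whereas Mesp1 had 0 in all 3, which goes against the GMTMM label. That library is therefore called the library labelled GMTMM, and directions drawn from it rest on this label. Markers of macrophages (10 of 10), fibroblasts (9 of 9) and endothelial cells (7 of 7) were detected in every library, beside the labels of cardiac fibroblasts for MICFs and induced cardiomyocytes for the others. Of 8 cardiomyocyte markers, Myh6, Ryr2 and Actn2 were at 0 in MICFs and 8 of 8 were detected in both transduced libraries. The 10 macrophage markers summed to 18324 FPKM in the GMTMS-iCM library and the 8 cardiomyocyte markers to 779. In the library labelled GMTMM these sums were 8736 and 277. The values of the family are therefore those of mixed libraries and are not assigned to cardiomyocytes. With 1 library per condition no p-value was computed, and sort, virus, medium and cocktail cannot be told apart in the comparisons with MICFs. Values come in FPKM as deposited, that is fragments scaled by gene length and by a size factor for each library rather than by its total counts. Differences are on a log2 scale after quantile normalization of FPKM with a pseudocount of 1, and a gene counted as higher or lower when its difference exceeded 1. Folds are ratios of deposited FPKM with exact 95% Clopper-Pearson intervals from the counts, which cover counting error only. Where 3 values follow each other without a name, they are given in the order MICFs, GMTMS-iCMs, library labelled GMTMM.

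Upstream sequence is shown for 4 ligand genes, because Il1a, Il1b and Il1rn were high in both transduced libraries while Il33 was high in 1 of them. Each line holds up to 250 bases before the most upstream transcript start that RefSeq gives for the gene on GRCm38.p6, read 5′ to 3′ on the strand of the gene. Capitals mark matches to motifs of factors known in inflammatory genes, searched on both strands: AP-1 (TGANTCA), C/EBP (TTNNGCAA), PU.1 (GAGGAAG), an interferon response element (GAAANNGAA), TATAAA and the NF-kB consensus.
Il1a, chr2:129309973-129310222, minus strand: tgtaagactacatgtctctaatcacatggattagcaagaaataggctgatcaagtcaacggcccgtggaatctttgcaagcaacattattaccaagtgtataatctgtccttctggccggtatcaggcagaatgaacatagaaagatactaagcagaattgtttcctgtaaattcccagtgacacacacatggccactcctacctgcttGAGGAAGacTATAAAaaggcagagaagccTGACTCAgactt
Il1b, chr2:129371140-129371389, minus strand: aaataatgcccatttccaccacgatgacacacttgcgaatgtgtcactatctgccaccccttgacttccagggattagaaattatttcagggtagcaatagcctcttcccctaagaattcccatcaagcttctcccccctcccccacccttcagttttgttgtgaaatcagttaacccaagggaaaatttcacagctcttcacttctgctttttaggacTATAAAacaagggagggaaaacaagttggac
Il1rn, chr2:24336610-24336852, plus strand: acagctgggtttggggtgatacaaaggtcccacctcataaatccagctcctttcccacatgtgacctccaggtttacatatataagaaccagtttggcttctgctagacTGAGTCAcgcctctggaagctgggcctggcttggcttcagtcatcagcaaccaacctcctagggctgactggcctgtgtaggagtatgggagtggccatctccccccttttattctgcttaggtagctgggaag
Il33, chr19:29924863-29925112, plus strand: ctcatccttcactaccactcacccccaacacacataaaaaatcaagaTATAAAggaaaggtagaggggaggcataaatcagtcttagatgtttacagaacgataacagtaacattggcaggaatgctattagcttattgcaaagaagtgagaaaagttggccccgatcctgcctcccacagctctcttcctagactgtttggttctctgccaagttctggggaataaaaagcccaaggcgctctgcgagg
The Il1rn line stops 7 bases early because those bases lie in an exon in GENCODE M21. Il1a held TATAAA starting 32 bases before the transcript start and Il1b held it 31 bases before. Il1a also held a PU.1 match at 41 bases and an AP-1 match at 12 bases, and Il1rn held an AP-1 match at 141 bases. Il33 held TATAAA at 203 bases from its upstream start and again at 29 bases from its other RefSeq start, where a C/EBP match stood at 85 bases. The windows before the other RefSeq starts of Il1rn, not printed here, held no match to any of the motifs. Among 32851 RefSeq windows of 250 bases, 12.4% held TATAAA, 6.75% AP-1, 10.6% PU.1, 9.56% C/EBP, 7.13% the interferon element and 7.25% the NF-kB consensus. No match to the NF-kB consensus or the interferon element stood in these 4 windows, which says only that these letters are not there. Counts were made per gene, so reads from different starts of Il1rn or Il33 were not separated.

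Against MICFs, Il1a, Il1b and the antagonist Il1rn were far higher in GMTMS-iCMs while the signalling receptor Il1r1 was lower. Il1rn, Il1a, Il1b, Il1r2, Casp1 and Il18 were higher by over 1, Il1r1 was lower by over 1, and Il33, Il1rap and Il1rl1 lay within 1. That is 6 of 10 genes higher against 9.06% of the 15451 genes with over 10 counts in at least 1 library, and 1 of 10 lower against 8.80%. In the library labelled GMTMM against MICFs, 6 of 10 were higher (Il1rn, Il1a, Il33, Il1b, Il1r2 and Il1r1) against 6.45% of all genes, and 0 of 10 were lower against 3.55%. The median difference of the 10 genes was 1.59 in the GMTMS-iCM library and 1.53 in the library labelled GMTMM, beside -0.07 and -0.08 for all genes compared. Both comparisons share the MICF library, and the members were chosen with results of the first one known. The counts of higher genes and the medians include Il1rn, which was selected on its rise in the first comparison.

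**Figure D1:**
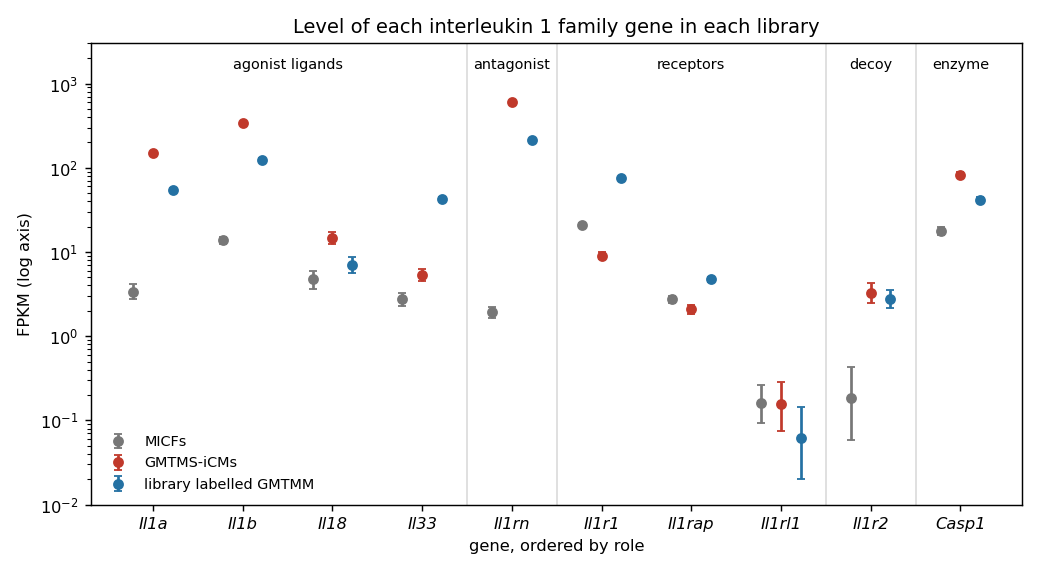
FPKM of each of the 10 genes (log axis) in MICFs, the GMTMS-iCM library and the library labelled GMTMM, with genes ordered by role and bars giving the exact Poisson 95% interval of the count. Il1rn stood at 1.92 FPKM in MICFs, 599 in the GMTMS-iCM library and 216 in the library labelled GMTMM, while Il1r1 stood at 21.1, 9.07 and 74.7.

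Among the agonists, Il1b (ENSMUSG00000027398, chromosome 2 from 129364570 to 129371139, minus strand) encodes the secreted cytokine that needs cleavage before it acts. It had 378 counts in MICFs, 6037 in the GMTMS-iCM library and 2786 in the library labelled GMTMM, or 13.8, 341 and 125 FPKM. The order put GMTMS-iCMs first, the library labelled GMTMM second and MICFs far below. Il1b was 24.7-fold higher in GMTMS-iCMs than in MICFs (22.3 to 27.5) and 9.08-fold higher in the library labelled GMTMM (8.15 to 10.1). By FPKM it took rank 3109 of all genes in MICFs, 119 in the GMTMS-iCM library and 393 in the library labelled GMTMM.

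Il1a (ENSMUSG00000027399, chromosome 2 from 129299610 to 129309972, minus strand), whose product is active without that cleavage, followed the same order at a lower level. Its counts were 96, 2729 and 1266, and its FPKM 3.38, 149 and 54.9. Il1a was 44.0-fold higher in GMTMS-iCMs than in MICFs (35.9 to 54.6) and 16.2-fold higher in the library labelled GMTMM (13.2 to 20.2). FPKM of Il1b exceeded that of Il1a 4.08-fold in MICFs (3.25 to 5.15), 2.29-fold in the GMTMS-iCM library (2.19 to 2.40) and 2.28-fold in the library labelled GMTMM (2.13 to 2.44). The pair thus stood in nearly 1 proportion in both transduced libraries and in another in MICFs. Of the exon bases of Il1a, 11.2% overlap the opposite-strand gene Gm14023, which had 6, 109 and 20 counts, and how the counting treated strand is not given in the sources used here, so its level is uncertain to that extent. For Il1b the overlap with Il1bos was 1.31% of exon bases.

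Il18 (ENSMUSG00000039217, chromosome 9 from 50554827 to 50581840, plus strand) encodes a ligand that, like IL-1 beta, is processed by caspase-1 and is known for inducing interferon gamma. Its counts were 70, 140 and 85, and its FPKM 4.72, 14.6 and 7.06. Il18 was thus highest in GMTMS-iCMs, with a fold of 3.10 over MICFs (2.31 to 4.19), and 1.50 in the library labelled GMTMM (1.08 to 2.08), much smaller than those of Il1a and Il1b. The fold of Il1b over Il18 in FPKM went from 2.92 in MICFs to 23.3 in the GMTMS-iCM library and 17.7 in the library labelled GMTMM.

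Il33 (ENSMUSG00000024810, chromosome 19 from 29925114 to 29960718, plus strand), a nuclear alarmin released from damaged cells, had another order. It had 114 counts in MICFs, 142 in the GMTMS-iCM library and 1447 in the library labelled GMTMM, or 2.75, 5.30 and 42.9 FPKM. Only the library labelled GMTMM stood far from the others, 15.6-fold above MICFs (12.9 to 19.1) with a difference of 3.51. GMTMS-iCMs were 1.93-fold above MICFs (1.50 to 2.49) with a difference of 0.84. Of the summed FPKM of the 4 agonist genes, Il33 made up 11.2% in MICFs, 1.04% in the GMTMS-iCM library and 18.7% in the library labelled GMTMM, while Il1b held 56.0%, 66.9% and 54.4%.

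The antagonist Il1rn (ENSMUSG00000026981, chromosome 2 from 24336853 to 24351494, plus strand) was the member through which the family was chosen. It had 153 counts in MICFs, 30811 in the GMTMS-iCM library and 13996 in the library labelled GMTMM, or 1.92, 599 and 216 FPKM. From rank 10452 by FPKM in MICFs it stood at rank 62 in the GMTMS-iCM library and rank 203 in the library labelled GMTMM. The fold over MICFs was 312 in the GMTMS-iCM library (266 to 368) and 113 in the library labelled GMTMM (96.1 to 133). On the log2 scale the differences were 7.47 and 6.12, each the 5th largest of 15451 genes. Il1rn also moved from the 8th place among the 10 genes in MICFs to the 1st place in both transduced libraries, where it made up 49.7% and 37.9% of their summed FPKM, after 2.80% in MICFs. In the order of levels, the 95% intervals of neighbouring genes overlapped in MICFs for Il18 and Il1a, Il1a and Il1rap, Il1rap and Il33, and Il1r2 and Il1rl1, in the library labelled GMTMM for Il33 and Casp1, and in GMTMS-iCMs for none.

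Set against its agonists within a library, Il1rn changed place. Its FPKM was 0.139 times that of Il1b in MICFs (0.115 to 0.169), 1.76 times in the GMTMS-iCM library (1.71 to 1.81) and 1.73 times in the library labelled GMTMM (1.66 to 1.80). Against Il1a the values were 0.568, 4.03 and 3.94, and against the sum of Il1a and Il1b they were 0.112, 1.22 and 1.20. In MICFs Il1a and Il1b together exceeded Il1rn, and in both transduced libraries Il1rn exceeded that pair. Summed over all 4 agonists, Il18 and Il33 included, FPKM was 24.6, 509.6 and 229.96, so that Il1rn lay above the sum in GMTMS-iCMs and below it in MICFs and the library labelled GMTMM. The intervals of the ratio of Il1rn to Il1b overlapped between the transduced libraries and lay apart from that of MICFs. These are ratios of RNA, and all of them contain the gene selected on its level.

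**Figure D2:**
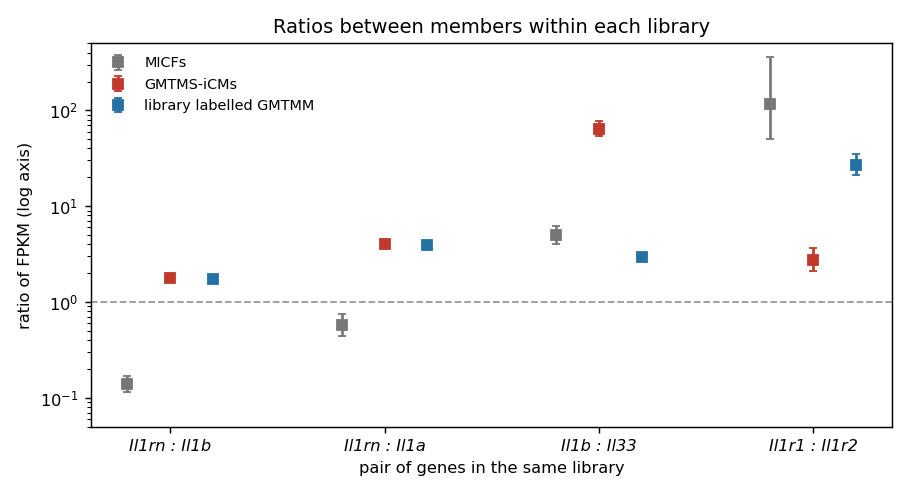
Ratio of FPKM of 4 pairs of genes within each library (log axis), with exact 95% intervals from both counts. The ratio of Il1rn to Il1b was 0.139 in MICFs, 1.76 in the GMTMS-iCM library and 1.73 in the library labelled GMTMM, whereas the ratio of Il1r1 to Il1r2 was 116, 2.77 and 26.9.

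The 5 genes nearest to Il1rn in Euclidean distance over its 3 log2 values were Cxcl10 at 0.49, Myl7 at 1.50, Rsad2 at 1.58, Mx1 at 1.68 and Oasl1 at 1.71. Cxcl10, a chemokine induced by interferon, had 1.36, 490 and 257 FPKM. Rsad2, Mx1 and Oasl1 are known as interferon-stimulated genes, and Myl7, the atrial myosin light chain, was listed at 0 counts in MICFs. With 3 libraries this nearness means a low level in MICFs and high levels in both transduced libraries, and no more.

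The signalling receptor Il1r1 (ENSMUSG00000026072, chromosome 1 from 40225080 to 40317257, plus strand) took opposite directions in the transduced libraries. It had 1936 counts in MICFs, 536 in the GMTMS-iCM library and 5553 in the library labelled GMTMM, or 21.1, 9.07 and 74.7 FPKM. Against MICFs its level was 2.33-fold lower in the GMTMS-iCM library (2.12 to 2.57) and 3.53-fold higher in the library labelled GMTMM (3.35 to 3.72), with differences of -1.37 and 1.42. It was the most abundant of the 10 genes per length in MICFs and took the 6th place in the GMTMS-iCM library and the 3rd in the library labelled GMTMM. Its share of the summed FPKM was 30.8%, 0.752% and 13.1%.

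Il1rap (ENSMUSG00000022514, chromosome 16 from 26581704 to 26730117, plus strand), the accessory chain shared by the receptors of IL-1 and IL-33, varied less. Its counts were 451, 219 and 626, and its FPKM 2.76, 2.08 and 4.72. The order of the libraries was that of Il1r1, with folds over MICFs of 1.33 downwards in the GMTMS-iCM library (1.13 to 1.57) and 1.71 upwards in the library labelled GMTMM (1.51 to 1.93), and differences of -0.15 and 0.62. FPKM of Il1r1 over Il1rap was 7.66 in MICFs, 4.37 in the GMTMS-iCM library and 15.8 in the library labelled GMTMM. Of its exon bases, 4.86% overlap the opposite-strand gene Gm20319, which had at most 2 counts in a library.

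Il1rl1 (ENSMUSG00000026069, chromosome 1 from 40429570 to 40465415, plus strand), the receptor of IL-33, was close to the limit of the depth, with 16, 10 and 5 counts and 0.161, 0.156 and 0.0621 FPKM. Its intervals of fold all included 1, at 0.968 in the GMTMS-iCM library (0.393 to 2.27) and 0.385 in the library labelled GMTMM (0.110 to 1.10). A difference was not detectable at this depth, so the libraries cannot be ordered by Il1rl1.

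Il1r2 (ENSMUSG00000026073, chromosome 1 from 40074079 to 40125231, plus strand) is the decoy. It had 5 counts in MICFs, 58 in the GMTMS-iCM library and 62 in the library labelled GMTMM, or 0.182, 3.27 and 2.78 FPKM. The transduced libraries stood 18.0-fold (7.27 to 57.4) and 15.3-fold (6.21 to 48.7) above MICFs, with wide intervals because of the 5 counts. Per length, Il1r1 exceeded the decoy 116-fold in MICFs (49.7 to 358), 2.77-fold in the GMTMS-iCM library (2.11 to 3.70) and 26.9-fold in the library labelled GMTMM (20.9 to 35.1), and the 3 intervals did not overlap.

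Casp1 (ENSMUSG00000025888, chromosome 9 from 5298517 to 5307265, plus strand) encodes the inflammasome protease that cleaves IL-1 beta and IL-18. Its counts were 384, 1155 and 730, and its FPKM 17.8, 83.1 and 41.7. It was highest in GMTMS-iCMs, 4.66-fold above MICFs (4.15 to 5.24) with a difference of 1.78, and 2.34-fold above MICFs in the library labelled GMTMM (2.07 to 2.66) with a difference of 0.88. Without quantile normalization that second difference was 1.18, which is past the limit of 1.

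Between the transduced libraries, the ligands and receptors did not move together. Il1a, Il1b and Il1rn were higher by over 1 in GMTMS-iCMs, with differences of 1.36, 1.36 and 1.35, and Il33 and Il1r1 were lower by over 1, with differences of -2.67 and -2.79. The remaining 5 genes lay within 1. That is 3 of 10 higher against 6.16% of all genes and 2 of 10 lower against 9.18%, with a median of 0.60 beside 0.06 for all genes. As folds, Il1a, Il1b and Il1rn were 2.71 (2.54 to 2.90), 2.73 (2.61 to 2.85) and 2.77 (2.71 to 2.82) times higher in GMTMS-iCMs, Casp1 1.99 (1.81 to 2.19) and Il18 2.07 (1.57 to 2.75). Il33 was 8.10-fold lower (6.82 to 9.70), Il1r1 8.24-fold lower (7.54 to 9.02) and Il1rap 2.27-fold lower (1.95 to 2.66). The intervals of Il1r2, at 1.18 (0.808 to 1.71), and of Il1rl1, at 2.52 (0.783 to 9.38), included 1. Il1rn was selected on another contrast that shares the GMTMS library, and the other members were added with earlier results of these data known.

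**Figure D3:**
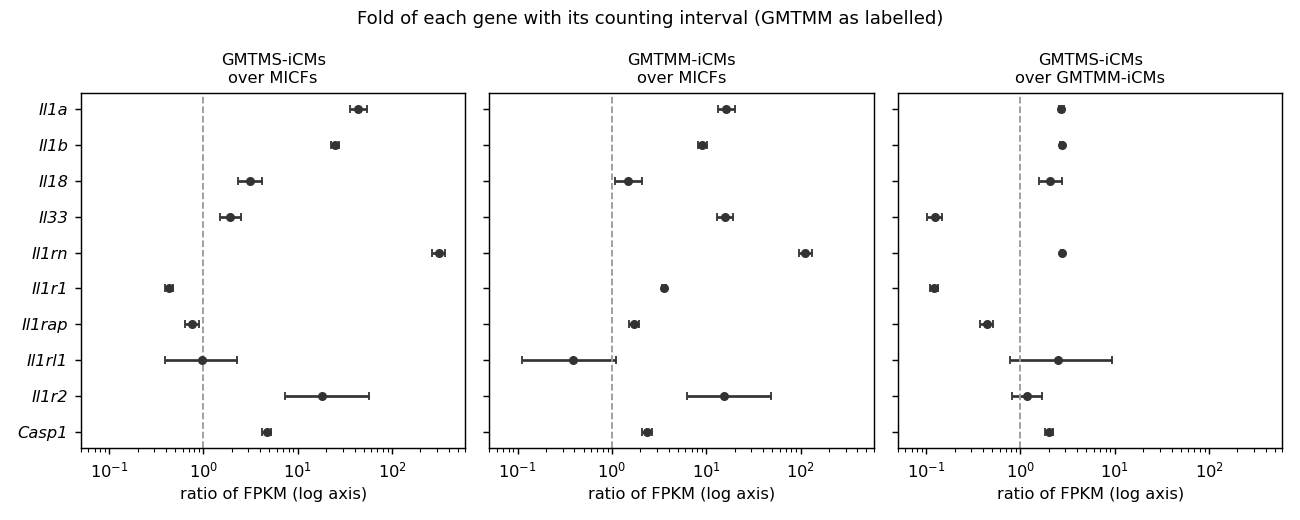
Ratio of FPKM of each of the 10 genes (log axis) in GMTMS-iCMs over MICFs, the library labelled GMTMM over MICFs, and GMTMS-iCMs over the library labelled GMTMM, with exact 95% intervals from the counts and a dashed line at 1. Il33 and Il1r1 stand left of the line in the panel of the transduced libraries, at folds of 8.10 and 8.24 downwards, while Il1a, Il1b and Il1rn stand at 2.71, 2.73 and 2.77 upwards.

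Cell type markers also differed between the libraries. In bulk RNA, fewer cells of a type and less RNA per cell cannot be told apart. The summed FPKM of the 10 macrophage markers was 9494 in MICFs, 18324 in the GMTMS-iCM library and 8736 in the library labelled GMTMM, of which Lyz2 alone held 6135, 11353 and 5495. Their folds over MICFs ranged from 1.37 to 2.97 in the GMTMS-iCM library and from 0.432 to 1.24 in the library labelled GMTMM. On the quantile-normalized log2 scale their differences from MICFs had a median of 0.27 in GMTMS-iCMs (-0.07 to 1.23). Of the 10, 2 were higher by over 1 and 0 lower, beside 9.06% and 8.80% of all genes. In the library labelled GMTMM the median was -0.62 (-1.56 to 0.11), with 0 higher and 2 lower beside 6.45% and 3.55%. Lyz2 had a difference of 0 in GMTMS-iCMs because quantile normalization gave it the same value, 13.2, as in MICFs. Its fold in FPKM there was 1.85. In the library labelled GMTMM, whose macrophage sum lay 1.09-fold below that of MICFs, Il1b was 9.08-fold and Il1rn 113-fold higher. Per 1000 FPKM of macrophage markers, Il1b amounted to 1.45, 18.6 and 14.3 FPKM, Il1rn to 0.202, 32.7 and 24.8, and Il1a to 0.356, 8.12 and 6.29. Between the transduced libraries the macrophage folds ranged from 1.96 to 3.35, a range that holds the folds of Il1a, Il1b, Il1rn, Casp1 and Il18. The folds of the 8 cardiomyocyte markers ranged from 2.18 to 8.48, which also holds those of Il1a, Il1b and Il1rn. Casp1 and Il18, at 1.99 and 2.07, lay just below that range, and their intervals (1.81 to 2.19 and 1.57 to 2.75) reached into it. Casp1 came to 1.88, 4.53 and 4.78 per 1000 FPKM of macrophage markers, and Il18 to 0.497, 0.798 and 0.808.

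Fibroblast markers followed another order, at 1491, 223 and 2838 summed FPKM, the order of Il1r1 and Il1rap. The sum was 6.70-fold lower in GMTMS-iCMs than in MICFs and 1.90-fold higher in the library labelled GMTMM, where Il33 was 15.6-fold and Il1r1 3.53-fold higher. On the quantile-normalized log2 scale the fibroblast median was -3.04 in GMTMS-iCMs, with 9 of 9 lower by over 1 beside 8.80% of all genes. In the library labelled GMTMM it was 0.25 (-0.17 to 1.06). There 1 was higher, 0 were lower and 8 lay within 1, beside 6.45% of all genes higher and 3.55% lower. Endothelial markers summed to 440, 12.5 and 342 FPKM, and cardiomyocyte markers to 2.36, 779 and 277. Mesothelial markers summed to 0.820, 1.05 and 5.09 FPKM. The part of these cell types in the values of the family was not tested.

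Neutrophils are a known source of Il1b, Il1rn and Il1r2, and S100a9, Ly6g, Cxcr2 and Retnlg were at 0 in all 3 libraries. Of 8 neutrophil markers, 3, 2 and 4 were detected, and Csf3r was the highest of them with 10.8, 42.8 and 16.0 FPKM. Camp, of the same list, had 12, 6 and 56 counts and stood in the opposite order between the transduced libraries, at 0.852 and 6.32 FPKM. Mast cells and innate lymphoid cells carry the IL-33 receptor, and Ms4a2, Cma1 and Fcer1a were at 0 in all 3 libraries. Of the other mast cell markers, Cpa3 had 19, 1 and 2 counts, Mcpt4 had 2, 78 and 350, and Tpsb2 had 0, 0 and 2, so that Cpa3 and Mcpt4 stood in opposite orders. T cell and innate lymphoid markers (6 of 6 detected) summed to 5.58, 19.2 and 17.8 FPKM, but with different members. Cd4 and Il7r were highest in GMTMS-iCMs, at 508 and 191 counts. Cd3e, Cd3g, Cd8a and Trac had at most 8 counts each in MICFs and GMTMS-iCMs and 57, 53, 63 and 77 in the library labelled GMTMM.

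**Figure D4:**
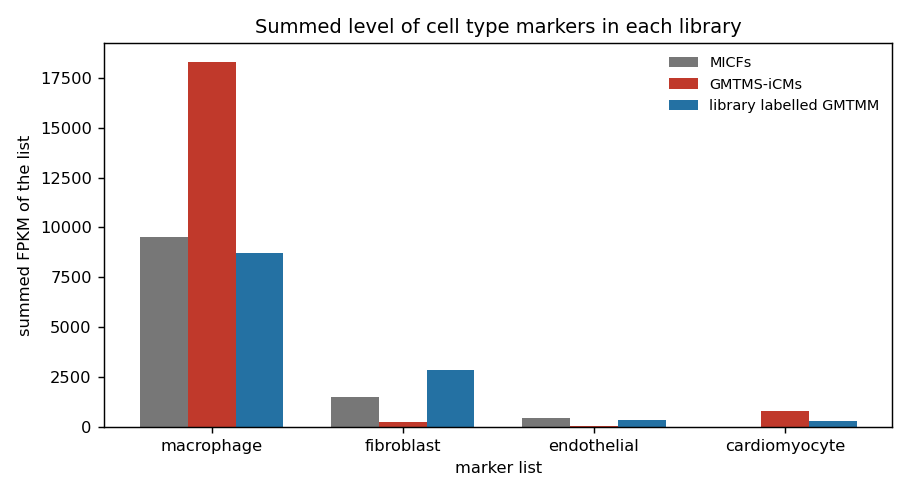
Summed FPKM of the macrophage, fibroblast, endothelial and cardiomyocyte marker lists in each library, as bars from 0. Macrophage markers were highest in the GMTMS-iCM library (18324 FPKM) and fibroblast markers in the library labelled GMTMM (2838 FPKM).

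The rest of the pathway was read from lists of other ligands, receptors, inflammasome parts, signalling parts and response genes, written with earlier results known. Of 5 other ligand genes in the table, none had over 10 counts and 4 were at 0 in all libraries. Only Il1f6 was counted, at 1, 0 and 2 counts, below or within the 3 counts that a value of 0 allows. The ligand transcripts of the family counted here were thus almost wholly those described above.

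Of the 7 other receptor and binding protein genes, 4 had over 10 counts in a library. Against MICFs, 1 was higher (9.06% of all genes) and 2 lower (8.80%) in the GMTMS-iCM library (median -0.46). In the library labelled GMTMM, 0 were higher (6.45% of all genes) and 0 lower (3.55%), with a median of 0.29. Sigirr, an inhibitory receptor of the family, had 159 counts in MICFs, 1 in the GMTMS-iCM library and 84 in the library labelled GMTMM, with a difference of -2.11 in GMTMS-iCMs. Il1rl2, the receptor of IL-36, had 296, 50 and 343 counts, so that it too was lowest in GMTMS-iCMs, with a difference of -1.06. Il18bp, a secreted protein that binds IL-18, went the other way, with 290, 593 and 422 counts and differences of 1.42 and 0.69. Il18rap, a chain of the IL-18 receptor, had 2, 7 and 11 counts and a difference of 0.14.

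Of 11 inflammasome and processing genes, 3 were higher by over 1 and 0 lower in each transduced library against MICFs, where 9.06% of all genes were higher and 8.80% lower in the GMTMS-iCM library, and 6.45% and 3.55% in the library labelled GMTMM. The medians were 0.50 and -0.51, beside -0.07 and -0.08 for all genes. Nlrp3, the sensor of the inflammasome that activates caspase-1, had 938 counts in MICFs, 10120 in the GMTMS-iCM library and 4278 in the library labelled GMTMM, and differences of 3.55 and 2.11. Casp4, the sensor of intracellular lipopolysaccharide, had differences of 3.61 and 3.22. Mefv, which encodes pyrin, had 9, 201 and 102 counts and differences of 2.70 and 1.59. Nlrc4, a sensor of bacterial proteins, had differences of 0.74 and -0.73, so it took opposite signs in the transduced libraries.

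Among 18 signalling genes, 6 exceeded the limit upwards and 0 downwards in the GMTMS-iCM library (median 0.63), and 6 were higher and 1 lower in the library labelled GMTMM (median 0.20), and between the transduced libraries 0 were past the limit. Of all genes, 9.06% were higher and 8.80% lower in the first of these comparisons, 6.45% and 3.55% in the second, and 6.16% and 9.18% in the third. The largest differences in GMTMS-iCMs were those of Nfkb1 (2.68), Nfkb2 (2.42) and Relb (2.17), which encode NF-kB subunits, and Irak2 (1.85), a kinase family member of the receptor complex. In the library labelled GMTMM the same genes had differences of 2.42, 1.98, 2.29 and 1.02.

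NF-kB and IL-1 response genes held the most members past the limit. Of 19 genes, 13 passed the limit upwards and 1 downwards in the GMTMS-iCM library (median 1.82), and 17 were higher and 0 lower in the library labelled GMTMM (median 3.18). Of all genes compared, 9.06% and 6.45% were higher in these libraries, and 8.80% and 3.55% lower. Ptgs2, the inducible cyclooxygenase, had 343, 7809 and 7262 counts and differences of 4.67 and 4.31. Tnfaip3, a brake on NF-kB, had 1151, 21401 and 22830 counts and differences of 4.39 and 4.27. Both were high in the transduced libraries, where GMTMS-iCMs exceeded the library labelled GMTMM 1.35-fold for Ptgs2 and 1.18-fold for Tnfaip3. Mmp13, a collagenase, had differences of 5.01 and 3.18, whereas Mmp3, stromelysin, had 3054 counts in MICFs, 217 in the GMTMS-iCM library and 3527 in the library labelled GMTMM, and differences of -3.60 and -0.11.

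Between the transduced libraries most response genes stood opposite to Il1a and Il1b. Of the 19 response genes, 1 was higher and 11 were lower in GMTMS-iCMs (median -1.37), beside 6.16% and 9.18% of all genes, while Il1a and Il1b were higher there and Il1r1 was lower. Il6 and Cxcl5, chosen after their values were seen, had the largest such differences of the list. Il6, an inflammatory cytokine, had 122 counts in MICFs, 772 in the GMTMS-iCM library and 11635 in the library labelled GMTMM, a difference of -3.57 between the transduced libraries. Cxcl5, a neutrophil-attracting chemokine, had 441, 457 and 9903 counts and a difference of -4.02. In the same comparison, fibroblast markers were lower in GMTMS-iCMs for 9 of 9 genes (median -3.40) and endothelial markers for 6 of 7 (median -4.08), while 6 of 10 macrophage markers were higher (median 1.05). The part of these cell types, and of IL-1 among the ligands that act on these genes, was not tested.

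**Figure D5:**
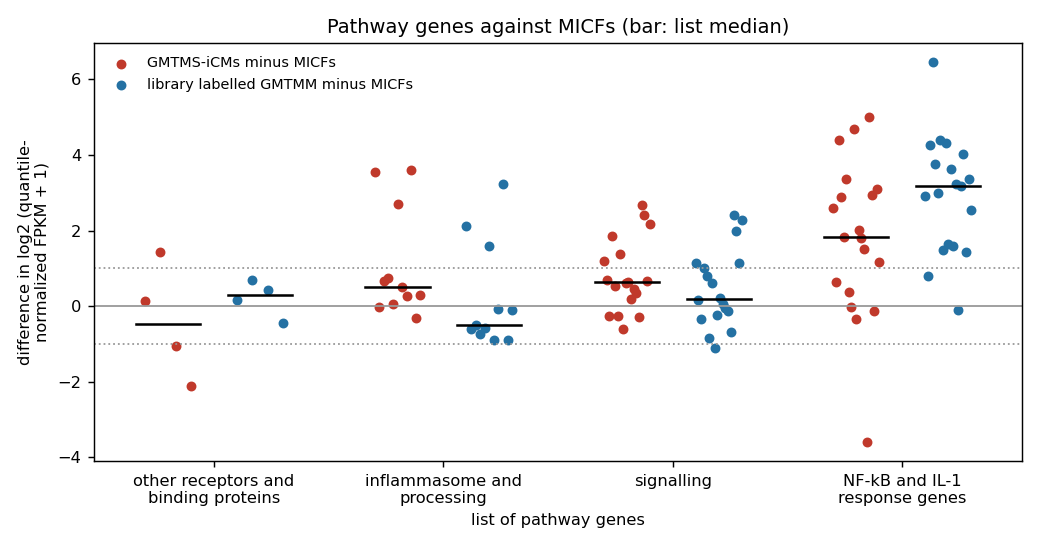
Difference from MICFs on the log2 scale for each gene with over 10 counts in 4 pathway lists, in the GMTMS-iCM library and in the library labelled GMTMM, with a bar at each list's median and dotted lines at differences of 1 either way. The response genes had medians of 1.82 and 3.18, and the signalling genes 0.63 and 0.20.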

How the data were processed

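For 3 libraries the authors deposited raw counts per gene together with FPKM values. Per the labels, HISAT2 2.0.5 and mm9 were named in the submitters' processing notes. The gene coordinates of the tables nevertheless equalled those of GRCm38 in GENCODE M21 for 53462 of 54409 matched genes, including 10 of 10 members. The counting tool is not given in the sources used here. The deposited FPKM had been scaled by size factors of the DESeq2 kind (1.26, 0.811 and 1.02) rather than by library totals, so that a fold over MICFs is 1.39 times the CPM fold in the GMTMS-iCM library and 1.24 times in the library labelled GMTMM.

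FPKM were quantile-normalized over the 3 libraries as in the study's methods, with tied values averaged, and log2 (value + 1) was taken. Genes with over 10 counts in at least 1 library were compared. The floor for a count of 0 was 3 counts. No p-value was computed. The members and lists were chosen with earlier results of these data known. All 10 members were named, with up to 4 genes of each pathway list, those with the largest absolute difference between GMTMS-iCMs and MICFs, and the 5 genes nearest to Il1rn. Il6 and Cxcl5 fall outside this rule and were chosen after their values were seen, as were the cell type markers named singly. The MICF column carries another abbreviation and was assigned to its sample by elimination. The steps were tested on simulated Poisson counts with as many genes raised as lowered, which does not cover a shift in composition between libraries. Alternatives used edgeR 4.0.16 (TMM) and DESeq2 1.42.0, and other steps R 4.3.3, Python 3.11.15, SciPy 1.17.1, pandas 2.3.3, numpy 2.4.6 and matplotlib 3.10.9.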

Additional observations from a re-analysis of the deposited data

Results flagged for a closer look

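Il1r1 stood out because its level moved in opposite directions under the same contrast in the transduced libraries. Against MICFs its difference was -1.37 in the GMTMS-iCM library and 1.42 in the library labelled GMTMM. The difference between the transduced libraries was not tested, since there is 1 library of each and both contrasts share the MICF library. With Sall4 counted and Mesp1 at 0 in both, it is not shown to be a difference of cocktail.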

How the results depend on the processing

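Alternatives were a pseudocount of 0.1, leaving out quantile normalization, taking log2 before it, other filters on low values, TMM log2 CPM, DESeq2 size factors, a limit of 2 and CPM folds. Of 160 alternative differences of the 10 genes, 0 changed sign, 111 stayed within the counting interval of the reported value and 49 left it, as did 20 of 30 folds computed from CPM. With a limit of 2, the genes higher in GMTMS-iCMs than in MICFs numbered 3 instead of 6, those lower 0 instead of 1, and those higher in GMTMS-iCMs than in the library labelled GMTMM 0 instead of 3. With DESeq2 size factors that last count was 5. Against MICFs, the genes lower in the library labelled GMTMM numbered 1 instead of 0 with TMM and with DESeq2 size factors, the gene being Il1rl1 at -1.13 and -1.22. Casp1 in the library labelled GMTMM passed 1 with no quantile normalization (1.18), TMM (1.19) and DESeq2 size factors (1.22). Between the transduced libraries, a pseudocount of 0.1 and DESeq2 size factors took Il18 to 1.02 and 1.04, and TMM and DESeq2 size factors took Il1rap to -1.24 and -1.18 and Il1rl1 to 1.01 and 1.18. A pseudocount of 0.1 took Il33 to 1.04 in GMTMS-iCMs against MICFs. The causes were not tested. Quantile normalization over MICFs and GMTMS-iCMs only, chosen after seeing the data, gave 6 higher and 1 lower there, the reported counts. Without quantile normalization the median difference of the 1000 most abundant genes was 0.50 in the GMTMS-iCM library and 0.49 in the library labelled GMTMM, instead of -0.12 and -0.07. No paired analysis was possible because there was only 1 library for a condition. Depth limits Il1rl1 and Il1r2, with at most 16 counts in a library for the first and 5 in MICFs for the second.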
